A study of Gallus gallus with 14 samples.

Results

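Lens-wearing retinas were compared with control retinas among the male libraries of a chicken series, that is, the 9 of 14 libraries in which HINTW, a gene of the female-specific W chromosome, lay below 1 CPM (counts per M reads of the library). Female birds carry a Z and a W chromosome and males a pair of Z chromosomes. The 9 male libraries were 6 lens libraries (replicates 1, 2, 3, 5, 6 and 7) and 3 control libraries (replicates 1, 5 and 6). The other 5 libraries carried W-linked RNA and were 1 lens library (replicate 4) and 4 control libraries (replicates 2, 3, 4 and 7). All are labelled as White Leghorn retina, wild type, of postnatal day 3. Lens birds were fitted at 3 days of age with a lens of -10 D and wore it for 3 days, so for them day 3 is the age at fitting and not at collection. The labels say no more of the control retinas than that they are controls, and whether day 3 is their age at collection is not clear. The labels do not state that the libraries came from separate birds, and the p-values below therefore rest on the spread from library to library, which may be partly technical.

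A minus lens places the image behind the retina, and the growing eye of a chick lengthens towards it. The retina holds the signals that set this growth, among which amacrine cells containing glucagon and the early gene EGR1 (known in chick work as ZENK) are often studied. Thyroid hormone reaches the retina largely as the prohormone thyroxine. The deiodinase DIO2 turns it into the active hormone triiodothyronine inside the cell, DIO3 inactivates both, and the receptors THRA and THRB act on target genes, THRB being known for its part in cone opsin patterning. Replication-dependent histone genes lie in a cluster, lack introns and end in a stem loop instead of a poly(A) tail, so their transcripts are kept by a total RNA library of the kind made here.

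The libraries were chosen by the measured level of HINTW alone, and its values are a description. HINTW ranged over 0.0243 to 0.549 CPM in the 9 male libraries, against 116.8 to 145.0 CPM in the other 5, with no library between. Of 36 W-linked genes above 0.5 CPM in any library, 34 were lower in every male library than in every other one. The median level of Z-linked genes was 3.37 to 3.47 in male libraries and 2.91 to 3.04 in the others on the log2(CPM + 1) scale. The male libraries held totals of 30.8 to 41.4 M reads, estimated from the step worth 1 read, of which 9.68 to 13.01 M fell in the 18631 listed genes. The limit that a count of 0 sets was 0.0725 to 0.0973 CPM, depending on the library (3 reads, counting error only). Within each group, pairs of male libraries differed by 5.32 to 16.7 times the counting error (chi-square per degree of freedom, 18 pairs), so none was a copy of another.

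Of 14259 genes tested, 2 passed an adjusted p of 0.05 (limma with Benjamini-Hochberg adjustment), both lower in lens libraries, which is 0.014% of genes. They were DIO2, the activating deiodinase, and HIST1H2B7, a clustered histone H2B gene. Over all tested genes the median log2 fold change, lens over control, was -0.004, and 51.6% of genes lay below 0. An unadjusted p under 0.05 was reached by 1152 genes (8.08%), of which 636 were lower in lens libraries (4.46%) and 516 higher (3.62%). Lens and control values did not overlap for 270 genes that were lower (1.89%) and 255 that were higher (1.79%). A further count, of genes past 1.5-fold on the log2(CPM + 1) scale, gave 61 genes (0.428%), 44 lower (0.309%) and 17 higher (0.119%). Fold changes on this scale understate the change of genes with low levels.

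DIO2 (chromosome 5, 40752222 to 40769123, minus strand, GRCg6a) was measured at 48.9, 46.4, 46.7, 45.7, 44.9 and 53.7 CPM in male lens libraries, against 85.8, 101 and 74.4 CPM in male controls. Every lens value lay below every control value, and the lens libraries lay close together while the controls were spread. The means were 47.7 ± 3.21 CPM in lens libraries (SD, n = 6) and 86.9 ± 13.1 CPM in controls (SD, n = 3), so the lens mean was lower by 45.1%. DIO2 fell by a log2 fold change of -0.84 (standard error 0.08, 95% interval -1.03 to -0.66, limma adjusted p = 0.00143). That fit takes the same spread in both groups. As the 3 controls were the more spread group, the interval may be too narrow and the p too small. The fall was called in each of the 9 fits that left out 1 library, with log2 fold changes between -0.95 and -0.73. It was kept in 14 of 18 further settings and lost in the others, among them no filter on low values (adjusted p = 0.0524) and the exact Wilcoxon test (adjusted p = 0.647). As its groups did not overlap, the Wilcoxon p of DIO2 was the smallest that 84 assignments allow. At that bound the adjusted p depends on how many genes reach it, and 0.647 was the lowest of any gene. No other listed gene overlapped DIO2.

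In the libraries with W-linked RNA, DIO2 stood at 60.8 CPM in the lens library, against 49.9, 57.1, 75.3 and 69.3 CPM in controls. That lens value lay inside the control range. The difference in log2(CPM + 1) between lens and control was therefore -0.84 in male libraries and -0.03 in the others. The interaction, male difference minus female difference, was -0.81 (standard error 0.21) with an unadjusted p = 0.00117 and an adjusted p = 0.684 in limma, so it did not pass, and the female side rests on a single lens library. Over all 14 libraries by treatment alone, where treatment and sex are partly confounded, the difference of DIO2 was -0.53 (limma adjusted p = 0.0955). With W-linked RNA as a covariate it was -0.61 (limma adjusted p = 0.0696).

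HIST1H2B7 (chromosome 1, 48071383 to 48071764, minus strand) was measured at 6.81, 6.80, 6.05, 5.08, 7.57 and 8.34 CPM in male lens libraries, against 13.1, 13.8 and 12.4 CPM in male controls. The groups did not overlap, and the highest lens value was in replicate 7. HIST1H2B7 fell by a log2 fold change of -0.87 (standard error 0.12, 95% interval -1.14 to -0.61, limma adjusted p = 0.0415). Its call was less stable than that of DIO2. It was lost in 6 of the 9 fits that left out 1 library (each of lens replicates 1, 2 and 3 and of control replicates 1, 5 and 6), where the adjusted p reached 0.176. It was kept in 12 of 18 further settings, among which the exact Wilcoxon test, whose p is bounded from below, called no gene. In the libraries with W-linked RNA it stood at 6.66 CPM in the lens library, against 8.71, 5.92, 7.17 and 15.0 CPM in controls, and the interaction was -0.53 with an unadjusted p = 0.158. Near-identical histone copies can share reads, so the value of any single copy is uncertain.

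**Figure D1:**
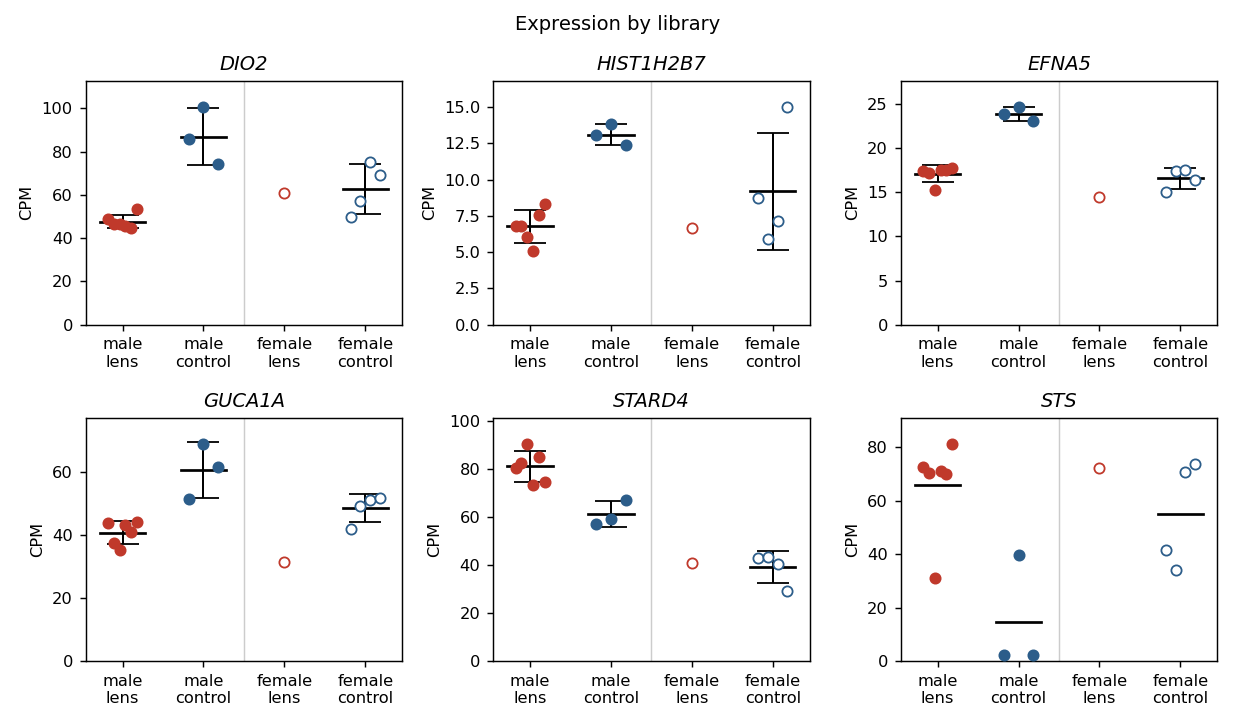
CPM of 6 genes in every library: filled points are male libraries and open points libraries with W-linked RNA, red for lens and blue for control; horizontal lines are means and whiskers 1 SD, left out for STS, whose values fall at separate levels. DIO2, HIST1H2B7, EFNA5, GUCA1A and STARD4 do not overlap between male lens and male control libraries, while DIO2 of the female lens library (60.8 CPM) lies among its controls.

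The members of the thyroid hormone list were then taken by role. Of 23 tested members, 4 were lower at an unadjusted p under 0.05, DIO2 among them, and 0 were higher (all genes: 4.46% lower, 3.62% higher), and the list's median log2 fold change was -0.11. NCOA2, a coactivator of nuclear receptors, had 46.0 to 64.7 CPM in lens libraries (median 56.1) and 75.8, 73.9 and 79.4 CPM in controls, without overlap (log2 fold change -0.45, limma adjusted p = 0.12). The receptor THRB had 122 to 138 CPM in lens libraries and 146, 165 and 144 CPM in controls, again without overlap, at a log2 fold change of -0.20 (adjusted p = 0.396). SLC7A5, an amino acid carrier that also takes up thyroid hormone, overlapped between groups (log2 fold change -0.30, adjusted p = 0.617). The inactivating enzyme DIO3 was low, at 0.254 to 0.474 CPM in lens libraries and 0.223 to 0.490 CPM in controls (log2 fold change 0.04, adjusted p = 0.955). KLF9, a target gene of the hormone in many vertebrate tissues that was picked after its values were seen, had 77.9 to 92.3 CPM in lens libraries and 77.8 to 78.9 CPM in controls (log2 fold change 0.12, adjusted p = 0.709).

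Histone genes of the replication-dependent cluster were more often lower than higher. Of 31 such genes in the table, 30 lie on chromosome 1 between 48065236 and 48177286, and 30 were tested. At an unadjusted p under 0.05, 14 were lower, HIST1H2B7 among them, and 0 higher, where 4.46% of all genes were lower. The list's median log2 fold change was -0.29. HIST1H2B7 is also counted below among the members without overlap and the lower H2B genes. Lens values of 8 members lay below all control values (1.89% of all genes), and the groups overlapped in the others. The summed level of the list also overlapped, at 88.6 to 157.6 CPM in lens libraries and 147.7 to 169.5 CPM in controls. By class, 5 of 5 linker histone H1 genes, 3 of 6 H2A genes, 4 of 8 H2B genes, 2 of 6 H4 genes and 0 of 5 H3 genes were lower at that p.

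Linker histones bind the DNA between nucleosomes. HIST1H111L had 4.66, 6.62, 4.34, 6.24, 6.08 and 8.36 CPM in lens libraries, against 9.94, 9.42 and 9.24 CPM in controls (log2 fold change -0.60, adjusted p = 0.266). HIST1H111R had 1.05 to 2.38 CPM in lens libraries and 2.64 to 3.04 CPM in controls (log2 fold change -0.51, adjusted p = 0.393). The other 3, named to complete the class after their values were seen, were HIST1H103, HIST1H101 and HIST1H110, at log2 fold changes of -0.47, -0.43 and -0.29. The H2B gene HIST1H2BO had 7.02 to 12.1 CPM in lens libraries and 12.4, 18.9 and 16.02 CPM in controls, and its neighbour HIST1H2A4L2, which overlaps it on the opposite strand, had 0.318 to 1.08 CPM in lens libraries and 1.32 to 1.97 CPM in controls. A pair of H4 genes in the list held identical values in every library, so members of the list are not independent. The count of lower members was 9 without control replicate 6 and 9 to 16 over the fits that left out 1 library. Over those fits 443 to 809 of 14259 genes were lower at an unadjusted p under 0.05. Of 9 tested replacement histones, which are made outside of DNA replication, 1 was lower at that p and 0 were higher, with a median of -0.03. Of 25 tested proliferation genes, 1 was lower and 0 higher, with a median of 0.04. Both counts are to be read against all genes (4.46% lower, 3.62% higher).

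**Figure D2:**
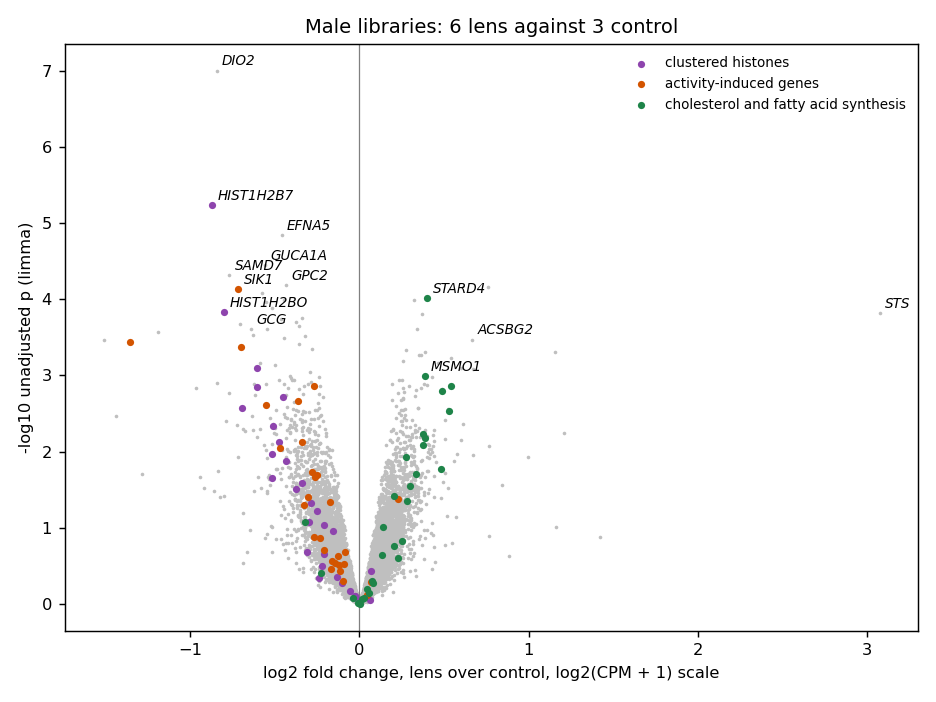
Each point is 1 of 14259 genes tested in the male libraries, with its log2 fold change (lens over control, log2(CPM + 1) scale) on the x axis and the unadjusted limma p on a -log10 scale on the y axis; 3 gene lists are coloured. DIO2 and HIST1H2B7 stand highest, clustered histones and activity-induced genes lie mostly left of 0, and genes of cholesterol and fatty acid synthesis mostly right of 0.

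Below the threshold, the genes next in order were also mostly lower in lens libraries. EFNA5, a Z-linked ephrin ligand known from the mapping of retinal axons, had 17.4, 17.2, 15.3, 17.5, 17.5 and 17.8 CPM in lens libraries, against 23.9, 24.7 and 23.1 CPM in controls (log2 fold change -0.46, adjusted p = 0.0684). The groups were separated by a wide gap, and the female libraries stood at 14.4 CPM with the lens, against 15.0 to 17.5 CPM in controls. GUCA1A, a calcium sensor that regulates guanylate cyclase in photoreceptors, had 35.3 to 44.2 CPM in lens libraries and 51.5, 69.1 and 61.6 CPM in controls (log2 fold change -0.56, adjusted p = 0.12). The female lens library stood at 31.5 CPM, against 42.2 to 51.9 CPM in female controls. GUCA1A passed in 1 of 18 further settings, with W-linked RNA as a covariate over 14 libraries (limma adjusted p = 0.00843). SAMD7, a photoreceptor repressor protein, had 25.6 to 41.8 CPM in lens libraries and 43.4, 58.5 and 53.4 CPM in controls (log2 fold change -0.77, adjusted p = 0.12). Its span overlaps LRRC31 on the opposite strand, and the use of strand in counting is not given in the sources used here.

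GPC2, a heparan sulphate proteoglycan of developing neurons, had 23.3 to 27.1 CPM in lens libraries and 31.1 to 38.998 CPM in controls (log2 fold change -0.44, adjusted p = 0.12). SLC25A25, a mitochondrial ATP-magnesium carrier, had 16.6 to 21.4 CPM in lens libraries and 25.2 to 32.2 CPM in controls (log2 fold change -0.52, adjusted p = 0.132).

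On the higher side no gene passed. STARD4, a Z-linked cholesterol transfer protein, had 80.6, 82.8, 90.6, 73.6, 85.0 and 74.8 CPM in lens libraries, against 57.4, 59.2 and 67.3 CPM in controls (log2 fold change 0.40, adjusted p = 0.12). MCF2L2, a guanine nucleotide exchange factor gene, had 276 to 318 CPM in lens libraries and 232 to 254 CPM in controls (log2 fold change 0.32, adjusted p = 0.12), and overlaps B3GNT5 on the opposite strand. LIMA1, an actin-binding protein, CEP192, a centrosome protein, and MSH6, a DNA mismatch repair protein, were at log2 fold changes of 0.37, 0.34 and 0.27 without overlap of the groups. ACSBG2, an acyl-CoA synthetase for long fatty acids, had 9.56 to 16.1 CPM in lens libraries and 7.19 to 9.503 CPM in controls (log2 fold change 0.66, adjusted p = 0.157). GNGT2, the gamma subunit of cone transducin, had 326 to 430 CPM in lens libraries and 256 to 316 CPM in controls (log2 fold change 0.39, adjusted p = 0.186). EEF2K, the kinase of elongation factor 2, and INPP5B, an inositol phosphatase, were at 0.36 and 0.35, both with an adjusted p = 0.195. MSH6 overlaps FBXO11, GNGT2 overlaps ABI3 and INPP5B overlaps LOC107055025, each on the opposite strand, and EEF2K overlaps POLR3E on the same strand.

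The remaining gene of that order, STS (steroid sulphatase), fell at separate levels. It had 72.4, 70.3, 31.1, 71.1, 69.8 and 81.1 CPM in male lens libraries, against 2.39, 39.8 and 2.22 CPM in male controls. Lens replicate 3 and control replicate 5 stood at an intermediate level, and the other 2 controls near 2 CPM. In the libraries with W-linked RNA it had 72.1 CPM in the lens library, against 41.7, 34.005, 70.7 and 73.5 CPM in controls, where the lens library and 2 of the controls stood at the high level. The male log2 fold change was 3.07 (adjusted p = 0.132), and it was 4.28 without control replicate 5, where STS passed. STS overlaps PUDP on the opposite strand.

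Steps of this kind were also seen in a pair of neighbouring genes of chromosome 7, picked after their values were seen. MDH1B, a malate dehydrogenase homologue, had 0.559 to 0.991 CPM in lens libraries and 4.71, 4.49 and 1.07 CPM in controls (log2 fold change -1.19, adjusted p = 0.148). DYTN, a dystrophin-related gene, had 0.338 to 1.04 CPM in lens libraries and 6.56, 5.47 and 0.879 CPM in controls (log2 fold change -1.51, adjusted p = 0.157). Control replicate 6 stood at the lens level in DYTN and just above it in MDH1B. Female controls likewise split, with 7.35, 0.946, 0.990 and 4.78 CPM of DYTN, against 0.756 CPM in the female lens library. Both genes passed without control replicate 6.

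The list of candidate genes of eye growth held 20 tested members, of which 6 were lower and 1 was higher at an unadjusted p under 0.05 (all genes: 4.46% and 3.62%), and 0 passed after adjustment. GCG, which encodes the glucagon precursor, had 9.94, 9.21, 15.3, 12.95, 11.2 and 9.84 CPM in lens libraries, against 19.6, 18.1 and 16.8 CPM in controls (log2 fold change -0.64, adjusted p = 0.141). The groups did not overlap, although lens replicate 3 came near the lowest control. EGR1 had 3.27, 3.01, 3.44, 7.47, 1.54 and 6.22 CPM in lens libraries, against 13.2, 11.97 and 8.82 CPM in controls (log2 fold change -1.35, adjusted p = 0.162). FOS, another early gene, had 0.254 to 0.851 CPM in lens libraries and 0.961, 1.21 and 2.17 CPM in controls (log2 fold change -0.70, adjusted p = 0.179). UTS2B, a urotensin-related peptide gene, had 0.394 to 0.826 CPM in lens libraries and 0.851 to 1.40 CPM in controls (log2 fold change -0.50, adjusted p = 0.234). For these 4 of 20 genes every lens value lay below every control value, as for 1.89% of all genes.

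DRD4, a dopamine receptor, and PENK, the enkephalin precursor, were lower at an unadjusted p under 0.05 with overlapping groups (log2 fold changes -0.37 and -0.22). ALDH1A2, which makes retinoic acid, was the member that was higher, at 0.41 (adjusted p = 0.465), with overlapping groups. The other members had log2 fold changes between -0.21 and 0.25, and none reached an unadjusted p of 0.05. Among them, ALDH1A1, a Z-linked retinaldehyde dehydrogenase, was at 0.25, VIP, a peptide of amacrine cells, at -0.21, TH, the rate-limiting enzyme of dopamine synthesis, at -0.11, and TGFB2, a growth factor, at -0.12. BMP2, a growth factor, was at -0.09, NOS1, the neuronal nitric oxide synthase, at -0.06, and the melanopsin gene OPN4 and the growth factor IGF1 both at 0.08. NOG, an inhibitor of bone morphogenetic proteins, was at 0.07. The gap junction gene GJD2, the peptide gene ADCYAP1, the dopamine receptor DRD2 and the dehydrogenase ALDH1A3 lay between -0.02 and 0.02, and their sign changed with the settings.

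Genes induced by neuronal activity or growth factor signalling were mostly lower in lens libraries. Of 29 tested, 14 were lower at an unadjusted p under 0.05 and 1 was higher, where all genes gave 4.46% lower and 3.62% higher, with a median log2 fold change of -0.23, and 0 passed after adjustment. EGR1 and FOS belong to both lists. Lens and control values did not overlap for 8 members, all with lens lower (1.89% of all genes). SIK1, a kinase induced by cyclic AMP, had 23.1, 24.3, 22.3, 20.7, 23.5 and 30.2 CPM in lens libraries, against 37.2, 52.0 and 32.8 CPM in controls (log2 fold change -0.72, adjusted p = 0.12). The synaptic pentraxin NPTX2 had 31.4 to 37.1 CPM in lens libraries and 40.9 to 42.6 CPM in controls (log2 fold change -0.27, adjusted p = 0.266). DUSP5, a phosphatase of ERK named after its values were seen, had 1.297 to 2.75 CPM in lens libraries and 2.78 to 3.69 CPM in controls. Lens replicate 7 was the lens library nearest to controls in SIK1, FOS, DUSP5 and in the mean of the list. The count of lower members was 10 to 15 over the fits that left out 1 library, where 443 to 809 of 14259 genes were lower.

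Genes of cholesterol and fatty acid synthesis lay on the other side. Of 30 tested, 14 were higher at an unadjusted p under 0.05 and 0 were lower, where 3.62% of all genes were higher, with a median log2 fold change of 0.22, and 0 passed after adjustment. The sterol pathway supplied most of them: 11 of its 17 enzymes were higher, against 1 of 6 fatty acid enzymes and 2 of 7 genes of sterol transport and regulation. HMGCS1, which makes the precursor of mevalonate and is Z-linked, had 108, 105, 142, 98.7, 119 and 93.0 CPM in lens libraries, against 68.8, 63.2 and 98.3 CPM in controls (log2 fold change 0.54, adjusted p = 0.266). MSMO1, a sterol demethylating enzyme, had 33.4 to 43.9 CPM in lens libraries and 27.2 to 33.5 CPM in controls (log2 fold change 0.39, adjusted p = 0.266).

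In HMGCS1 and MSMO1, control replicate 6 reached the lens range and the other 2 controls lay below it. LSS, INSIG1 and SQLE, named after their values were seen, were at 0.53, 0.48 and 0.33. SQLE and LSS act in turn to form the sterol rings, and INSIG1 is a feedback regulator of the pathway. The count moved with the control library left out: it was 7 without control replicate 5, 8 without control replicate 1 and 15 without control replicate 6. Each of these fits holds only 2 controls, and the list's median was 0.17, 0.19 and 0.32 in that order. Of 14259 genes, 1204, 760 and 1076 reached an unadjusted p under 0.05 in them, 798, 443 and 460 of these lower. Why the count moved was not tested. The median was 0.06 over all 14 libraries by treatment alone, where 9 members were higher at that p. In that fit 1930 of 14259 genes reached that p, 1498 of them lower. With W-linked RNA as a covariate the median was 0.11, with 10 members higher and 1 lower. Of all genes, 1604 then reached that p, 1156 of them lower. Without genes on Z and W, 11 of 27 members were higher in the male libraries (all genes: 1078 of 13592 at that p, 600 lower). Between the 1 female lens library and the female controls the list's median was -0.14.

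**Figure D3:**
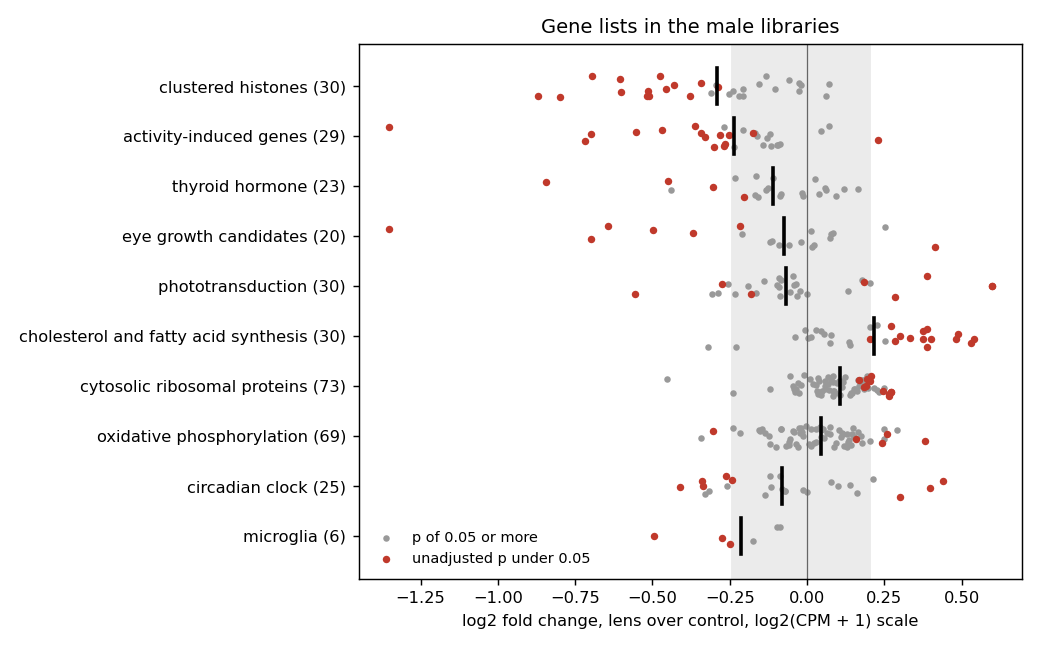
Log2 fold change (lens over control, log2(CPM + 1) scale) of each tested member of 10 gene lists in the male libraries, with the number tested in brackets; black bars are list medians, red points have an unadjusted p under 0.05, and the grey band holds the middle 90% of all genes. Medians are -0.29 for clustered histones, -0.23 for activity-induced genes, 0.22 for cholesterol and fatty acid synthesis and -0.21 for the 6 microglia markers.

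Means over the tested members placed each library in these lists. In clustered histones the mean deviation from the gene averages ran over -0.38 to 0.11 in lens libraries and 0.11 to 0.28 in controls on the log2(CPM + 1) scale. Lens replicate 6, at 0.11, came next to control replicate 5, also at 0.11, and lens replicates 1, 2 and 3 were lowest. In activity-induced genes the range was -0.18 to 0.07 in lens libraries and 0.13 to 0.22 in controls, without overlap. In cholesterol and fatty acid synthesis it was -0.08 to 0.26 in lens libraries and -0.30 to 0.04 in controls, where lens replicates 2 and 5 lay below control replicate 6. Lens replicate 6 was the highest and control replicate 5 the lowest library in this list and also among cytosolic ribosomal protein genes.

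**Figure D4:**
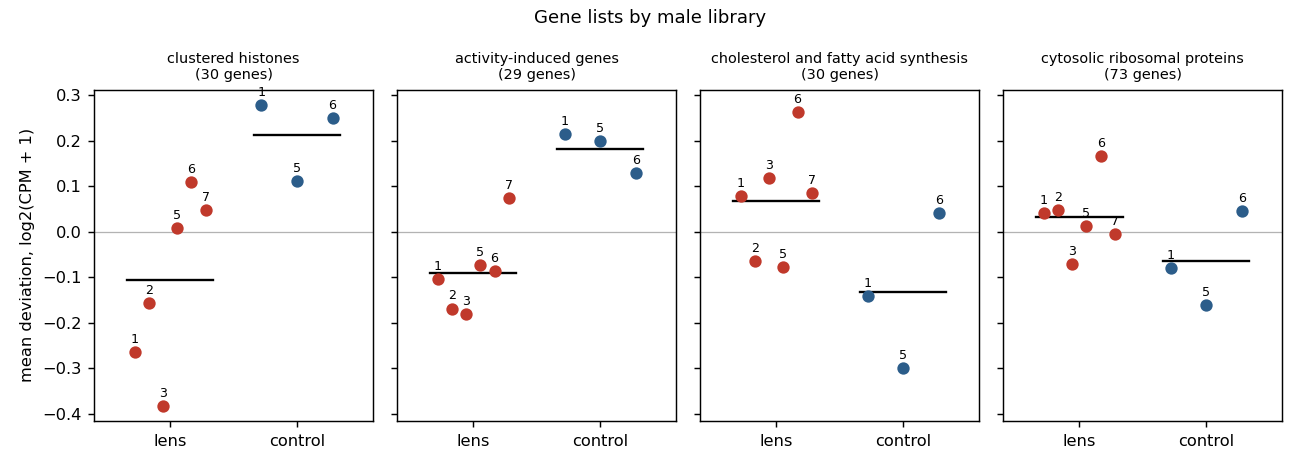
Mean deviation of the tested members of 4 gene lists from their average over the 9 male libraries (log2(CPM + 1) scale), 1 point per library numbered by replicate, red for lens and blue for control, with group means as lines. Lens and control points are apart for activity-induced genes (lens up to 0.07, controls from 0.13), nearly touch for clustered histones, and overlap for the other 2 lists.

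Cytosolic ribosomal protein genes, which build the translation machinery, were higher at an unadjusted p under 0.05 in 11 of 73 tested and lower in 0 (all genes: 3.62% higher, 4.46% lower), with a median of 0.11. RPS24 had 106 to 127 CPM in lens libraries and 87.5 to 110 CPM in controls (log2 fold change 0.27), RPL9 was at 0.26 and RPL22 at 0.27. The count of higher members was 5 without control replicate 1 and 21 without control replicate 6. In those fits 760 and 1076 of 14259 genes reached that p, 443 and 460 of them lower. With all 9 libraries, 4 of 69 tested genes of oxidative phosphorylation were higher and 1 was lower. Of 30 proteasome genes, 1 was higher and 1 lower. Both lists are to be read against 3.62% higher and 4.46% lower of all genes.

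Photoreceptor genes went both ways. Of 30 tested phototransduction genes, 5 were higher and 3 lower at an unadjusted p under 0.05 (all genes: 3.62% higher, 4.46% lower), with GUCA1A lower and GNGT2 higher as given above. SLC24A1, the rod exchanger of sodium, calcium and potassium, had 17.8 to 28.4 CPM in lens libraries and 12.96 to 20.02 CPM in controls (log2 fold change 0.60, adjusted p = 0.243). PDE6G, the inhibitory subunit of rod phosphodiesterase, was at 0.60 with overlapping groups (adjusted p = 0.43). In the photoreceptor matrix and outer segment list, 3 of 17 were higher and 3 lower, to be read against the same shares. IMPG1 had 290 to 352 CPM in lens libraries and 365 to 428 CPM in controls (log2 fold change -0.29, adjusted p = 0.266), and IMPG2 had 149 to 196 CPM in lens libraries and 209 to 236 CPM in controls (log2 fold change -0.33, adjusted p = 0.266). Both encode proteoglycans of the matrix between photoreceptors, and neither gene's groups overlapped.

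Among 25 tested clock genes, 5 were lower and 3 higher at that p (all genes: 4.46% lower, 3.62% higher). PER2 and PER3, negative arms of the clock, were both at -0.34, CRY2, a cryptochrome of the same arm, at -0.24 and ARNTL2, a partner of CLOCK, at 0.40, with overlapping groups in all 4. Of 24 endoplasmic reticulum stress genes, 5 were lower and 0 higher, against the same shares, and lens values of 5 members lay below all controls (1.89% of all genes). ATF4, a transcription factor of the stress response, had 99.1 to 118 CPM in lens libraries and 123 to 135 CPM in controls (log2 fold change -0.28, adjusted p = 0.183). HSPA5, the chaperone of that compartment, had 29.9 to 49.3 CPM in lens libraries and 49.6 to 50.9 CPM in controls (log2 fold change -0.45, adjusted p = 0.266), where lens replicate 7 came next to the controls. CRELD2 and CHAC1, induced in that response, were at -0.38 and -0.28.

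Of 33 glycolysis and hypoxia genes, 3 were lower and 1 higher (all genes: 4.46% lower, 3.62% higher). The glucose transporter SLC2A1 had 58.2 to 82.7 CPM in lens libraries and 77.6 to 109 CPM in controls (log2 fold change -0.40, adjusted p = 0.376). The hexokinase HK2 had 85.2, 70.7, 83.4, 82.2, 84.2 and 135 CPM in lens libraries, against 108, 127 and 144 CPM in controls (log2 fold change -0.50, adjusted p = 0.396), so lens replicate 7 stood inside the control range. Of 22 heat shock genes, 4 were lower and 1 higher, and of 19 retinoic acid genes, 3 were lower and 1 higher, where the same shares hold for all genes. RBP4, the plasma carrier of retinol, had 51.0 to 95.2 CPM in lens libraries and 90.8, 150 and 103 CPM in controls (log2 fold change -0.59, adjusted p = 0.396).

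Markers of other cells were then compared. The summed level of the microglia markers was 4.56 to 7.004 CPM in lens libraries and 8.06 to 8.74 CPM in controls, without overlap, and 3 of its 6 tested members were lower at an unadjusted p under 0.05 and 0 higher (all genes: 4.46% lower, 3.62% higher, also for the marker counts that follow). CSF1R, the receptor that maintains microglia, had 2.51 to 4.31 CPM in lens libraries and 4.64 to 5.11 CPM in controls (log2 fold change -0.49, adjusted p = 0.353). P2RY12, a purine receptor of these cells, and C1QB, a complement subunit, were at -0.27 and -0.25. CSF1R supplied a large part of the sum, and only 2 members were left with a filter of mean 2 CPM on the column sum. The list's median was -0.21, and it was -0.06 with a pseudocount of 5 and -0.51 with 0.1. In the libraries with W-linked RNA the sum was 6.67 CPM in the lens library and 5.33 to 7.49 CPM in controls. The summed Müller glia markers stood at 1381 to 1502 CPM in lens libraries and 1509 to 1623 CPM in controls, with 2 of 16 tested members lower and 1 higher. VIM, an intermediate filament gene of these glia, had 114 to 135 CPM in lens libraries and 142 to 148 CPM in controls (log2 fold change -0.24, adjusted p = 0.266), and CA2, a carbonic anhydrase, was at -0.22. PMP2, a fatty acid binding protein gene, was the member that was higher, at 0.44 (unadjusted p = 0.0396).

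Of 5 tested oligodendrocyte markers, 1 was higher and 0 lower: MBP, a myelin gene, had 122 to 169 CPM in lens libraries and 111 to 124 CPM in controls. Their sum overlapped between groups, at 134 to 193 CPM in lens libraries and 128 to 141 CPM in controls. The pigment epithelium sum was 13.97 to 18.61 CPM in lens libraries and 18.59 to 20.24 CPM in controls, with 0 of 6 members past that p in either direction, and the endothelium sum was 41.8 to 57.9 CPM in lens libraries and 44.4 to 54.8 CPM in controls. Markers of the crystalline lens summed to 3.83 to 5.73 CPM in lens libraries and 3.82 to 4.74 CPM in controls. The retina markers summed to 1336 to 1494 CPM in lens libraries and 1409 to 1545 CPM in controls, and 10 of 12 are in the table and were tested. In bulk tissue, fewer cells of a type and less RNA per cell cannot be told apart, and the part of these markers in the results above was not tested.

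The genes that passed over all 14 libraries by treatment alone numbered 11 (0.0771%), and neither DIO2 nor HIST1H2B7 was among them. In that fit treatment and sex are partly confounded: 6 lens libraries were male and 1 was not, against 3 and 4 of the controls. In the male libraries these 11 genes stood as follows. CAMK1D, a calmodulin-dependent kinase, had 51.9 to 67.0 CPM in male lens libraries and 72.0 to 79.9 CPM in male controls (log2 fold change -0.36, adjusted p = 0.167). SGK1, a kinase induced by stress and steroids, was at -0.29, RCAN2, a calcineurin regulator, at -0.42, SHC4, a signalling adaptor, at -0.40, and MAP3K13, a kinase upstream of JNK, at -0.32, each without overlap. The uncharacterised LOC107053759 and LOC112532219 were at -0.57 and -0.55, both with an adjusted p = 0.12. CEP192, NCOA2, NPTX2 and RBP4 are given above. All 11 kept in the male libraries the direction they had over all libraries. Male libraries are part of the 14, so these values are no independent support.

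The lens difference was set against that in the libraries with W-linked RNA by an interaction term over all 14 libraries. No gene passed (0%; lowest limma adjusted p = 0.684), and 954 genes (6.69%) had an unadjusted p under 0.05. Of these 954, the male difference was the lower one in 171 (1.2% of genes tested), but median ratio rescaling put 446 of 859 on that side and quantile normalisation 443 of 836, so the split depended on scaling. The female side has 1 lens library, which is assumed to vary like the others. Among the genes described here, the unadjusted p was smallest for ALDH1A3, at 0.000473: it had 1.94 to 2.38 CPM in male lens libraries and 1.44 to 2.58 CPM in male controls, while the female lens library had 0.476 CPM, against 1.76 to 2.28 CPM in female controls. FOS, at 0.254 to 0.851 CPM in male lens libraries, stood at 1.46 CPM in the female lens library, against 0.340 to 1.33 CPM in female controls (interaction -1.31, unadjusted p = 0.000979).

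The position of whole libraries was compared by principal components of log2(CPM + 1) over the tested genes. The first component held 28.7% of the variance, with scores of 1.86 ± 12.9 in lens libraries (SD, n = 6) and -3.73 ± 11.95 in controls (SD, n = 3), and the groups mixed along it (two-sided exact permutation p = 0.571). The second held 16.1%, with scores of 5.19 ± 5.61 in lens libraries and -10.4 ± 3.06 in controls, and the groups did not overlap. Its exact permutation p was 0.0119, the smallest that 84 assignments allow, or 0.0357 adjusted over the 3 components compared. Only the first component had been planned as a test. The third, with 11.6%, gave an exact permutation p of 0.5. The nearest libraries on the second component were lens replicate 7 at -0.53 and control replicate 6 at -7.36.

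**Figure D5:**
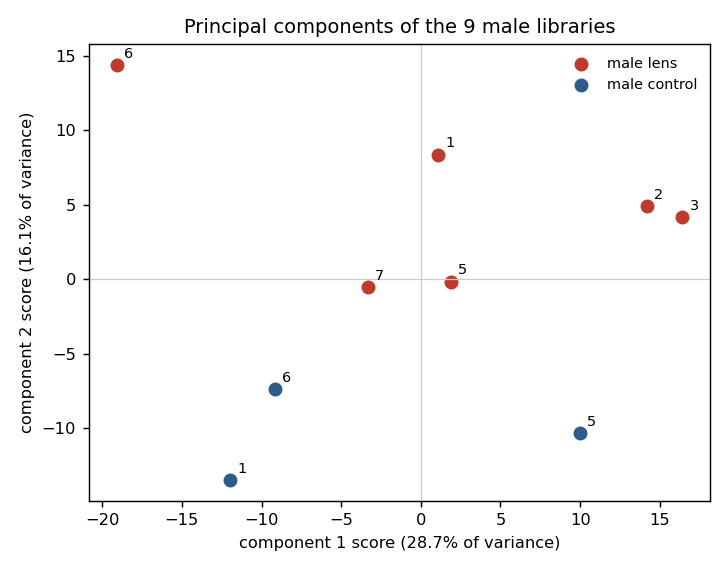
Scores of the 9 male libraries on the first and second principal component (share of variance on the axes), 1 point per library numbered by replicate, red for lens and blue for control. The groups mix along the first component, and along the second all lens libraries (from -0.53) lie above all controls (up to -7.36).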

How the data were processed

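RNA of 14 chicken retina libraries was read from 1 deposited table. The authors' table gives CPM plus an offset of 0.0001, as read from its values. In the male libraries, 93.1% to 93.8% of low values lay within 0.02 of a whole multiple of 1 step. That was too few to treat as whole reads in the main fits, which used CPM. Values rounded to whole steps were used for the chi-square between libraries and for the voom settings. Per the labels' protocols, total RNA was depleted of ribosomal RNA and made into stranded libraries. The tools listed, per the submitters' processing notes, are Partek and STAR with the build GRCg6a; counting, its use of strand and versions are not given in the sources used here. Chromosomes were named per sequence of the table, by the majority of its symbols found in RefSeq genes of GRCg7b (15419 of 18631 symbols matched). Every gene on a sequence took that name, and positions are the table's.

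The offset was removed and log2(CPM + 1) analysed. Genes were tested where at least 7 of 14 libraries reached 0.5 CPM on the column sum (0.152 to 0.167 CPM as deposited). The test between male lens and male control libraries was limma's moderated one (limma 3.58.1, R 4.3.3; trended eBayes, no covariate), two-sided. Its p-values were adjusted by Benjamini-Hochberg over every gene tested. The interaction was fitted over 14 libraries, and components were compared by exact permutation. The fits were also run on simulated counts in which every gene had the same spread beyond counting error. That run was a check of the code and does not measure the accuracy of the calls made here. The libraries' replicate numbers follow the order of deposit and pair nothing.

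Genes named are those that passed, the 10 smallest p-values in each direction among symbols that are no LOC number with a mean of 2 CPM or more in the higher group, every tested eye growth gene, up to 4 genes of each list, and those passing over 14 libraries; others are marked in the text, and some are not reported here. The libraries, the 25 gene lists and the naming rule were chosen with earlier results of these data known. Alternatives were other pseudocounts, filters, scalings and variance models, leaving out each library, and the exact Wilcoxon test. Others took the code letter (the last letter of the sample code) or W-linked RNA as a covariate. Voom with TMM scaling and the settings of the second component were added after seeing the data. Tables and figures used Python 3.11.15.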

Additional observations from a re-analysis of the deposited data

Results flagged for a closer look

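A library stood apart from the other 5 male lens libraries for 4 of the genes named, where the gap to the nearest library was more than 0.625 of the range (Dixon's 95% limit for 6 values, which chance alone passes in about 1 group in 20). In all, 91 groups were looked at, so 4 such gaps are no more than that rate gives. All gaps were taken on the log2(CPM + 1) scale. STS was lowest in lens replicate 3, with a gap of 0.842 of the range. EFNA5 was lowest in the same library, with 0.795, and so was IGF1, with 0.671. HK2 was highest in lens replicate 7, with 0.710.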

How the results depend on the processing

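No paired analysis was possible because the groups share no number in their sample codes and the replicate numbers follow the order of deposit. The count of 2 genes became 0 without a filter on low values (lowest adjusted p = 0.0524; 1490 genes at an unadjusted p under 0.05) and 0 with the exact Wilcoxon test (lowest adjusted p = 0.647; 1015 at an unadjusted p under 0.05), 4 with array weights, 1 with 4 groups fitted over 14 libraries, 19 with W-linked RNA as a covariate over 14 libraries and 11 with treatment alone over 14 libraries. The last 2 fits hold neither DIO2 nor HIST1H2B7. With only 84 assignments the exact Wilcoxon p is bounded from below, and too few genes reached that bound for any to pass after adjustment. Its count of 0 therefore says little about the stability of the calls. Leaving out 1 library gave 1 to 12 genes: 1 (DIO2) without lens replicate 1, 2 or 3 or control replicate 1, and 12 without lens replicate 7, which joined SIK1, SAMD7, NCOA2, EFNA5, HK2, HSPA5 and HIST1H2BO among others to the 2. Without control replicate 6 there were 4 and without control replicate 5 there were 3.

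DIO2 was called in 14 of 18 other settings and HIST1H2B7 in 12 of 18. With the code letter as a covariate HIST1H2B7 was lost (limma adjusted p = 0.107), and 2 genes were called, 1 higher and 1 lower. That letter was R in lens replicates 1, 3, 5 and 6 and in control replicate 6, and L in the other male libraries. It was thus not evenly spread over the groups. The count of 0 for the interaction became 2 without control replicate 5 (STS and MANBAL1), with a range of 0 to 2, and it could not be estimated without lens replicate 4. The difference on the first component was -0.70 to 13.8 over the fits that left out 1 library, below 0 without control replicate 1. That on the second component was 11.7 to 18.6. The exact permutation p of the second component, not adjusted over components, was 0.0179 to 0.0714 in these fits, highest without control replicate 5. With all 9 libraries and a pseudocount of 0.1 that p was 0.0238. Genes near 0 changed sign. With W-linked RNA as a covariate, ADCYAP1 was at -0.15, ALDH1A3 at -0.28, GJD2 at -0.016, NOG at -0.019 and DIO3 at -0.040; with treatment alone over 14 libraries they were at -0.21, -0.098, -0.017, -0.020 and -0.086, and OPN4 at -0.042. With the code letter, ADCYAP1 was at -0.038, ALDH1A3 at -0.0070, GJD2 at -0.0044 and NOG at -0.010. Array weights gave -0.031 for ADCYAP1 and -0.048 for ALDH1A3, and quantile normalisation 0.0074 for DRD2. Leaving out 1 library gave -0.094 to 0.11 for ADCYAP1, -0.15 to 0.18 for DRD2, -0.16 to 0.12 for ALDH1A3, -0.15 to 0.056 for NOS1, -0.029 to 0.21 for IGF1, -0.078 to 0.094 for GJD2, -0.055 to 0.21 for NOG and -0.013 to 0.13 for DIO3. The cause of these changes was not tested.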
